A study of Mus musculus with 9 samples.

Results

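The 10 genes described here encode the cytosolic heat shock machinery: the transcription factor Hsf1, the HSP70 chaperones Hspa8, Hspa1a, Hspa1b and Hspa2, the HSP110 chaperone Hsph1, the HSP90 chaperones Hsp90aa1 and Hsp90ab1, and the J-domain co-chaperones Dnaja1 and Dnajb1. They were chosen by symbol, with earlier results of these data known. All 10 of 10 were found among the 20325 genes of the deposited liver RNA-seq tables. ConvD livers came from mice that were born germ-free, received a single gavage of cecal contents from conventionally raised donors at 15 weeks of age and carried that microbiota for 4 weeks. GF+SCFA livers came from germ-free mice whose drinking water held a mixture of short-chain fatty acids, products of gut bacteria: acetate at 67.5 mM, propionate at 25.9 mM and butyrate at 40 mM. GF livers came from mice that stayed germ-free and drank plain water. Each group had 3 livers, and all mice were male C57BL/6J on chow. The design text gives an age of 14 weeks, and the growth protocol gives dissection at 19 weeks. Mice were caged by colonisation status, so cage and group cannot be told apart, and the time of day of dissection is not given in the sources used here. The labels do not name the animal behind each sample beyond calling the replicates biological, and p-values then reflect only how far these samples spread, which may be technical.

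Heat shock proteins hold unfolded proteins and help them to fold. HSP70 binds and releases short stretches of an unfolded chain in a cycle driven by ATP, J-domain proteins deliver the clients and start the hydrolysis of ATP, and HSP110 exchanges the nucleotide so that the client is let go. HSP90 takes over clients that are nearly folded, among them the glucocorticoid receptor of the hepatocyte. At rest, chaperones keep HSF1 inactive. When unfolded proteins accumulate, HSF1 forms trimers, binds heat shock elements, which are inverted repeats of the unit nGAAn, and switches on the inducible members Hspa1a, Hspa1b, Hsph1, Hsp90aa1 and Dnajb1. Hspa8 and Hsp90ab1 are the members made constitutively at high levels.

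Promoter sequence is shown for the members whose window holds inverted repeats of this unit, because those letters are what HSF1 is known to read. RefSeq promoter windows of the build GRCm38.p6, which run over 250 bases before the transcription start and 50 after it, were matched for 6 of the 10 genes by symbol (Hspa1a, Hspa1b, Hsph1, Dnaja1, Dnajb1 and Hspa2). No window was found by symbol for Hspa8, Hsp90aa1, Hsp90ab1 and Hsf1. The motifs GAANNTTC and TTCNNGAA, which read the same on both strands, were searched, and capitals mark each match. In Hsph1 a match of each motif overlapped to form TTCNNGAANNTTC, and for such 3-unit runs GAANNTTCNNGAA was searched as well.
Hspa1a and Hspa1b: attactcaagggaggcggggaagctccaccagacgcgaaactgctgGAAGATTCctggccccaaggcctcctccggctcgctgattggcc
Hsph1, before the start: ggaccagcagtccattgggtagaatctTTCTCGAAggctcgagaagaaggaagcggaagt
Hsph1, after the start: agtaaaatgctgcagaTTCTGGAAAGTTCt
Dnaja1: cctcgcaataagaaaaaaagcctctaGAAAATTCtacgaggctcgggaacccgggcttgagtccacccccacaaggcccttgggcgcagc

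The first stretch lies at chr17:34972217-34972306 for Hspa1a and at chr17:34959299-34959388 for Hspa1b, both on the minus strand, and is identical in the 2 genes over its 90 bases. Their whole windows differed at 4 of 300 bases, and their starts lie 12918 bases apart. The Hsph1 stretches lie at chr5:149636337-149636396 and chr5:149636287-149636316 on the minus strand, and the Dnaja1 stretch at chr4:40722318-40722407 on the plus strand. A 2-unit match was present for 4 of the 6 genes, against 17.0% of the 27025 genes with a window, and a 3-unit match for 1 of the 6, against 0.66%. Some genes have several windows: counted by window, 5 of the 10 windows of these genes held a 2-unit match, against 15.1% of all 32851, and for Dnaja1 the match lay in 1 of 3 windows. These counts are not of independent sites. Hspa1a and Hspa1b hold the same match in nearly identical windows, and the Hsph1 windows overlap and hold the same matches. The Dnajb1 and Hspa2 windows held neither motif in these letters. A match is a description of sequence and no binding was measured.

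In levels per length, Hspa8 and Hsp90ab1 made up most of the messenger RNA of the 10 genes. Summed over the 10 genes, the level was 1269, 1255 and 1039 TPM (a deposited unit that corrects for transcript length) in ConvD livers, 1570, 2059 and 1569 TPM in GF+SCFA livers, and 1993, 1704 and 1720 TPM in GF livers. Every ConvD liver lay below every liver of the other groups. Hspa8, the constitutive HSP70, was the highest member at 653 ± 89.0 TPM in ConvD, 1059 ± 151 TPM in GF+SCFA and 1066 ± 82.1 TPM in GF livers (SD, n = 3 each, as for all TPM means). Hsp90ab1, the constitutive HSP90, followed at 368 ± 48.3, 403 ± 63.5 and 468 ± 68.0 TPM in ConvD, GF+SCFA and GF livers. Its inducible partner Hsp90aa1 had 76.9 ± 6.00, 108 ± 23.9 and 108 ± 28.6 TPM in the same order of groups, and Dnaja1 had 56.8 ± 1.42, 83.0 ± 9.98 and 78.3 ± 7.90 TPM. The order of these 4 genes was the same in all groups, with no overlap between neighbours.

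The lower part of the order differed between the groups. In GF livers Hsph1 (31.6 ± 10.8 TPM), Hspa1b (21.9 ± 11.2 TPM) and Dnajb1 (17.8 ± 3.72 TPM) came next, and each overlapped its neighbour. GF+SCFA livers had the same order of means, at 31.2 ± 11.2, 19.1 ± 18.2 and 15.2 ± 6.06 TPM, and neighbours overlapped. There Hspa1b stood above Dnajb1 only in replicate 2 (40.0 against 22.2 TPM). It stood below Dnajb1 in replicate 1 (6.84 against 11.7 TPM) and replicate 3 (10.5 against 11.7 TPM). In ConvD livers Dnajb1 came next at 9.94 ± 0.71 TPM, then Hsph1 at 8.96 ± 1.67 TPM and Hsf1 at 6.78 ± 1.14 TPM, again with overlap between neighbours, and Hspa1b followed at 4.78 ± 0.58 TPM. Hsf1 therefore stood above Hspa1b in ConvD livers and below it in GF livers, where it had 7.66 ± 0.61 TPM. Hspa2 and Hspa1a, whose ranges overlapped in GF livers only, were the lowest members in every group, at 1.32 ± 0.28 and 0.46 ± 0.38 TPM in ConvD, 3.32 ± 0.07 and 1.73 ± 0.98 TPM in GF+SCFA, and 3.54 ± 1.56 and 2.85 ± 1.79 TPM in GF livers. Among the cytosolic HSP70 genes named here, Hspa8 alone made up nearly all of the message. It held 98.8% to 99.1% of the summed TPM of Hspa8, Hspa1a, Hspa1b and Hspa2 in ConvD, 96.4% to 98.8% in GF+SCFA and 96.6% to 98.5% in GF livers. HSP70 genes of other compartments are not in this sum.

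**Figure D1:**
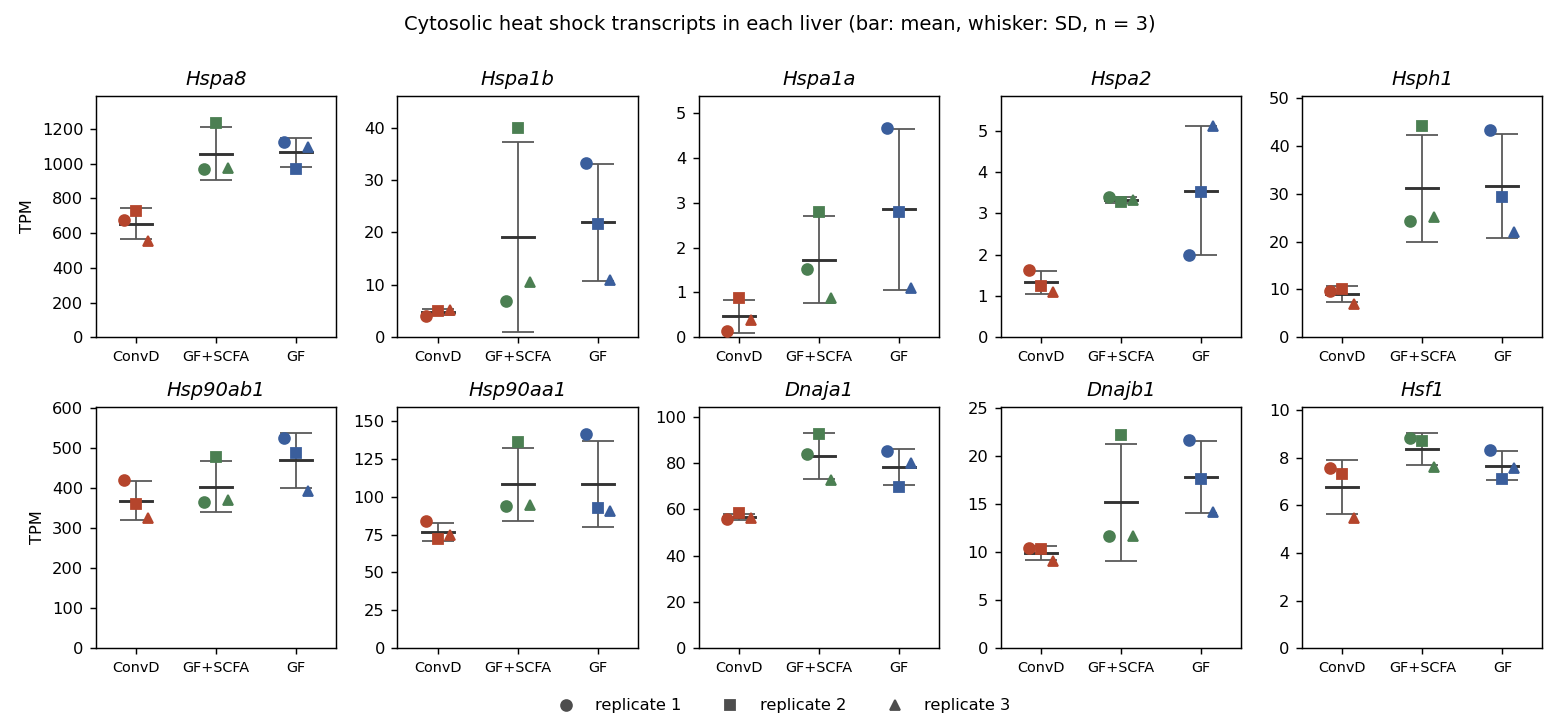
Levels of the 10 heat shock transcripts in TPM (vertical axis, linear, starting at 0) in each of 3 ConvD, 3 GF+SCFA and 3 GF livers, with the marker shape giving the replicate number, the bar the mean and the whisker the SD. The ConvD livers lie lowest for most genes. GF+SCFA replicate 2 and GF replicate 1 lie highest in their groups for Hspa8, Hspa1a, Hspa1b, Hsph1, Hsp90aa1, Hsp90ab1, Dnaja1 and Dnajb1.

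Colonised livers had less heat shock message than germ-free livers. In ConvD against GF, 4 of the 10 genes fell (Hsph1, Hspa8, Hspa2 and Dnaja1) and 0 rose at an adjusted p under 0.05 in edgeR's quasi-likelihood test with Benjamini-Hochberg adjustment, against 6.9% of the 12037 tested genes called lower and 5.93% called higher (12.8% in all). The fold change was below 0 for all 10 genes, against 49.5% of tested genes, and the ConvD and GF livers did not overlap for 8 of the 10, all lower in ConvD, against 15.9% of tested genes that were lower and 15.7% that were higher without overlap. The median log2 fold change of the 10 was -0.85, and that of all tested genes was 0.003. Because the 10 genes were chosen with earlier results of these data known, these shares are a description and not a test of the set. At an unadjusted p under 0.05 there were 9 of 10, against 28.6% of tested genes. With DESeq2 the count of genes that fell was 9, all but Hsf1, and 876 of the 1539 genes called in that fit were lower. Because whole liver was measured, fewer cells of a type and less RNA per cell cannot be told apart.

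Hsph1, the HSP110 that recharges HSP70, showed the clearest separation among the inducible members. It had 19.8, 22.0 and 15.8 CPM (counts relative to a TMM-scaled library size) in ConvD livers, 56.6, 98.1 and 58.0 CPM in GF+SCFA livers and 100, 69.5 and 46.4 CPM in GF livers. The highest ConvD liver lay far below the lowest liver of the other groups. The log2 fold change was -1.90 (SE 0.37, adjusted p 0.0221) against GF, a 3.74-fold lower level, and -1.88 (SE 0.37, adjusted p 0.0168) against GF+SCFA. With 1 liver left out the call against GF was lost without GF replicate 2 (log2 fold change -1.93, adjusted p 0.0574) and without ConvD replicate 1, 2 or 3 (-1.92, -2.01 and -1.78, adjusted p 0.0707, 0.0669 and 0.0623). Against GF+SCFA it was lost without ConvD replicate 1, 2 or 3 (-1.91, -1.99 and -1.77, adjusted p 0.0583, 0.0513 and 0.0524).

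Hspa8, the housekeeping HSP70 that folds new proteins and strips clathrin coats, fell by the largest amount in TPM of the 10 genes. It had 821, 941 and 744 CPM in ConvD livers, 1345, 1633 and 1337 CPM in GF+SCFA livers and 1547, 1371 and 1369 CPM in GF livers. The ConvD livers lay apart from both other groups, which overlapped each other. Its log2 fold change was -0.78 (SE 0.11, adjusted p 0.000687) against GF and -0.78 (SE 0.11, adjusted p 0.000315) against GF+SCFA, a 1.71-fold and a 1.72-fold lower level. The calls held under all 19 alternatives.

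Hspa2, an HSP70 best known from male germ cells and scarce in liver, also fell. It had 2.43, 1.95 and 1.75 CPM in ConvD livers, 5.67, 5.21 and 5.56 CPM in GF+SCFA livers and 3.37, 5.99 and 7.70 CPM in GF livers. The ConvD livers did not overlap the others. Hspa2 had a log2 fold change of -1.48 (SE 0.26, adjusted p 0.00391) against GF and -1.42 (SE 0.26, adjusted p 0.00337) against GF+SCFA. These calls also held under all 19 alternatives, and rested on 33 to 50 expected counts per ConvD liver.

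Hspa1a and Hspa1b, the strictly inducible HSP70 genes, had the largest fold changes and the widest spread. Hspa1b had 6.75, 8.69 and 9.46 CPM in ConvD livers, 12.8, 71.4 and 19.5 CPM in GF+SCFA livers and 61.5, 41.2 and 18.4 CPM in GF livers. Hspa1a had 0.19, 1.51 and 0.69 CPM in ConvD livers, 2.84, 4.97 and 1.58 CPM in GF+SCFA livers and 8.58, 5.30 and 1.83 CPM in GF livers. For both genes every ConvD liver was below every other liver in CPM, although the germ-free livers varied 3-fold or more among themselves. Neither passed the test: the log2 fold change against GF was -2.28 for Hspa1b (95% interval -4.24 to -0.32, adjusted p 0.124) and -2.68 for Hspa1a (-4.71 to -0.66, adjusted p 0.0894). Against GF+SCFA it was -2.07 for Hspa1b (-4.02 to -0.11, adjusted p 0.133) and -1.97 for Hspa1a (-4.11 to 0.17, adjusted p 0.180). In TPM, ConvD replicate 2 and GF+SCFA replicate 3 had the same Hspa1a level, 0.87.

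A single liver decided part of these values. Without GF+SCFA replicate 2, the liver with the highest Hspa1b, the Hspa1b log2 fold change of ConvD against GF+SCFA was -0.96. In the comparison with GF, Hspa1b passed the test without GF+SCFA replicate 2 (-2.28, adjusted p 0.0496), and Hspa1a passed it without GF replicate 3 (-3.10, adjusted p 0.0439). Without ConvD replicate 2 the Hspa1a value was -3.56 against GF (adjusted p 0.122) and -2.84 against GF+SCFA (adjusted p 0.174). Hspa1a rested on 4.22, 31.1 and 13.2 expected counts in the ConvD libraries.

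The 2 genes cannot be separated well by short reads. Of the 2918 stretches of 50 bases in the Hspa1a transcript, 1716 (58.8%) occur in Hspa1b, and these make up 62.3% of the 2754 stretches of Hspa1b, while no other pair among the 10 genes shares any. RSEM divides reads that match both, so the single values are uncertain and the sum is the firmer measure. Summed, the 2 genes had 6.99, 10.2 and 10.2 CPM in ConvD, 15.7, 76.4 and 21.1 CPM in GF+SCFA and 70.1, 46.5 and 20.2 CPM in GF livers, again with no overlap of the ConvD livers with the others. The log2 fold change of the sum was -2.32 (SE 0.79, adjusted p 0.111) against GF and -2.06 (SE 0.79, adjusted p 0.127) against GF+SCFA. The inducible pair was also taken as a share of the summed TPM of Hspa8, Hspa1a, Hspa1b and Hspa2. It made up 0.62%, 0.80% and 1.00% in ConvD, 0.85%, 3.34% and 1.15% in GF+SCFA and 3.25%, 2.44% and 1.08% in GF livers. On this scale the ConvD and GF livers did not overlap, and the GF+SCFA livers overlapped both.

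The HSP90 genes had smaller differences that did not pass the test. Hsp90aa1, the inducible HSP90, had 139, 127 and 137 CPM in ConvD, 178, 246 and 178 CPM in GF+SCFA and 265, 179 and 155 CPM in GF livers. The ConvD livers did not overlap the others, and the log2 fold change was -0.57 (95% interval -1.07 to -0.07, adjusted p 0.127) against GF and -0.58 (-1.07 to -0.08, adjusted p 0.105) against GF+SCFA. Without GF replicate 1 it passed against GF+SCFA (-0.58, adjusted p 0.00957), and the value against GF was -0.31 (adjusted p 0.183). Hsp90ab1, the constitutive HSP90, had 611, 558 and 520 CPM in ConvD, 604, 756 and 607 CPM in GF+SCFA and 863, 823 and 589 CPM in GF livers. Here the groups overlapped, since ConvD replicate 1 lay above GF replicate 3. The log2 fold change of Hsp90ab1 was -0.43 (-0.74 to -0.12, adjusted p 0.0691) against GF and -0.22 (-0.53 to 0.09, adjusted p 0.307) against GF+SCFA. Without GF replicate 3 it passed against GF (-0.58, adjusted p 0.00401). Of the summed TPM of Hsp90aa1 and Hsp90ab1, Hsp90aa1 made up 16.6% to 18.8% in ConvD, 20.4% to 22.2% in GF+SCFA and 16.0% to 21.2% in GF livers.

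Of the J-domain pair, Dnaja1 fell and Dnajb1 did not pass. Dnaja1, an HSP40 partner of Hspa8, had 184, 205 and 204 CPM in ConvD livers, 316, 333 and 271 CPM in GF+SCFA livers and 318, 267 and 271 CPM in GF livers. The ConvD livers were close to each other and below the rest. Dnaja1 had a log2 fold change of -0.53 (SE 0.09, adjusted p 0.00289) against GF and -0.63 (SE 0.09, adjusted p 0.000536) against GF+SCFA, and both calls held under all 19 alternatives. Dnajb1, the stress-induced HSP40 that recruits HSP70 to aggregates and to HSF1, had 13.6, 14.4 and 13.2 CPM in ConvD, 17.4, 31.7 and 17.3 CPM in GF+SCFA and 32.0, 26.8 and 19.2 CPM in GF livers. The ConvD livers were again the lowest without overlap. The log2 fold change of Dnajb1 was -0.92 (95% interval -1.58 to -0.25, adjusted p 0.0780) against GF and -0.69 (-1.36 to -0.02, adjusted p 0.139) against GF+SCFA. Without GF+SCFA replicate 2 it passed against GF (-0.91, adjusted p 0.00673), and the value against GF+SCFA was -0.34 (adjusted p 0.250). Against GF, Dnajb1 passed under 4 of the 19 alternatives and did not pass under 15. Among the 4 was the edgeR fit of only the 6 livers compared (-0.92, adjusted p 0.0138).

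Hsf1 itself differed little. It had 8.78, 9.03 and 7.02 CPM in ConvD livers, 11.7, 11.0 and 9.98 CPM in GF+SCFA livers and 10.9, 9.60 and 9.01 CPM in GF livers. ConvD and GF livers overlapped by a narrow margin, and the ConvD livers lay below all GF+SCFA livers. For Hsf1 the log2 fold change was -0.25 (95% interval -0.51 to 0.02, adjusted p 0.210) against GF and -0.39 (-0.66 to -0.13, adjusted p 0.0401) against GF+SCFA. The second value is a call by a small margin that was lost under 11 of 19 alternatives, among them without ConvD replicate 1, 2 or 3 (-0.44, -0.46 and -0.29, adjusted p 0.0617, 0.0506 and 0.127) and without GF+SCFA replicate 1, 2 or 3 (-0.34, -0.38 and -0.45, adjusted p 0.129, 0.107 and 0.0505). HSF1 is controlled mainly at the protein level, which was not measured.

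Short-chain fatty acids in the water went with no detected change in these genes. In GF+SCFA against GF, 0 of the 10 genes fell and 0 rose in edgeR's quasi-likelihood test, against 0.0332% of tested genes called lower and 0.00831% called higher (0.0415% in all). At an unadjusted p under 0.05 there were 0 of 10, against 12.3% of tested genes. DESeq2 also called 0 of the 10, with 82 called over all genes. The GF+SCFA and GF livers overlapped for all 10, against 8.86% of tested genes lower and 9.06% higher without overlap. The fold change was below 0 for 6 of the 10, against 51.3% of tested genes. The intervals show how much could have been missed. For Hspa8 the 95% interval of the log2 fold change was -0.22 to 0.24, for Dnaja1 -0.09 to 0.30, for Hsf1 -0.11 to 0.41, for Hsp90ab1 -0.52 to 0.10 and for Hsp90aa1 -0.49 to 0.50. They were wider for Hspa2 (-0.57 to 0.44), Hsph1 (-0.84 to 0.81), Dnajb1 (-0.87 to 0.42), Hspa1b (-1.98 to 1.55) and Hspa1a (-2.38 to 0.95).

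The comparison of ConvD with GF+SCFA livers sets mice with a transferred microbiota against germ-free mice with short-chain fatty acids in their water. Here 5 of the 10 genes fell (Hspa8, Hsph1, Hspa2, Dnaja1 and Hsf1) and 0 rose, against 8.97% of tested genes called lower and 9.44% called higher (18.4% in all). The fold change was below 0 for all 10, against 49% of tested genes, and 8 of the 10 had an unadjusted p under 0.05, against 33.1%. The ConvD and GF+SCFA livers did not overlap for 9 of the 10, Hsp90ab1 being the exception, against 18.9% of tested genes lower and 19% higher without overlap. The median log2 fold change of the 10 was -0.74, against 0.006 over all tested genes. Without any 1 of the ConvD livers the count of genes that fell was 3. Over all tested genes 677, 706 and 989 were then called lower, without ConvD replicate 1, 2 and 3. This comparison shares its ConvD livers with the comparison of ConvD with GF, so the 2 sets of values are not independent.

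**Figure D2:**
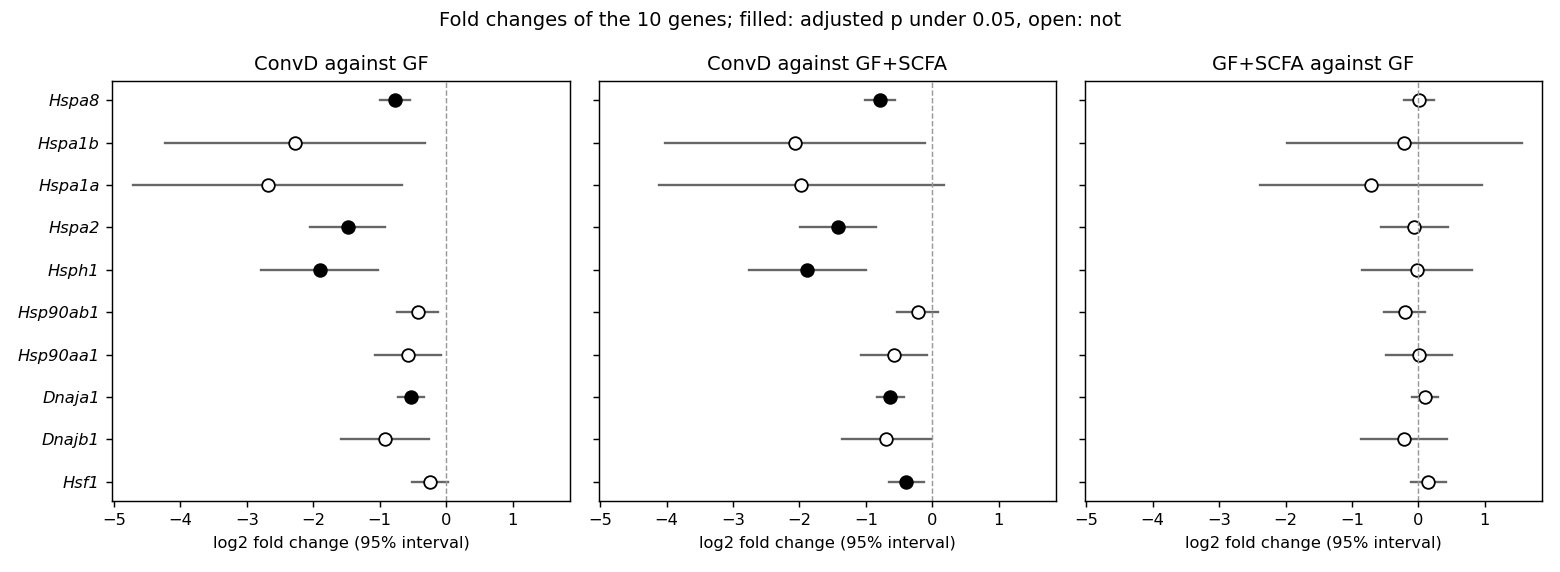
Log2 fold change (horizontal axis) of the 10 genes in ConvD against GF, ConvD against GF+SCFA and GF+SCFA against GF, with 95% intervals as lines and filled points for an adjusted p under 0.05. Points lie left of 0 for all 10 genes in both ConvD panels, with 4 and 5 filled, and lie around 0 with none filled in GF+SCFA against GF.

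Within the germ-free groups several of the genes, inducible and constitutive, varied together from liver to liver. GF replicate 1 was the highest and GF replicate 3 the lowest GF liver for Hsph1, Hspa1a, Hspa1b, Hsp90aa1, Hsp90ab1 and Dnajb1, and GF+SCFA replicate 2 stood above the other GF+SCFA livers for the same 6 genes. Hspa8 was also highest in GF replicate 1 and GF+SCFA replicate 2, with GF replicates 2 and 3 nearly equal (1371 and 1369 CPM). Relative to the GF mean, Hsph1 lay 0.47 higher in GF replicate 1 and 0.45 higher in GF+SCFA replicate 2 on the log2 scale, and Hspa1b lay 0.61 and 0.82 higher. Hspa2 ran the other way within the GF group, with its lowest value in GF replicate 1. Deviations from the group mean were also correlated with those of Hsph1, as a description over all 9 livers, the ConvD livers included. The r was 0.94 for Dnajb1, 0.91 for Hsp90ab1, 0.88 for Hsp90aa1, 0.86 for Hspa1b, 0.83 for Hspa8 and 0.70 for Hspa1a. The r was 0.63 for Hsf1, 0.62 for Dnaja1 and -0.66 for Hspa2. All values of a liver come from 1 library and share its depth and RNA.

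**Figure D3:**
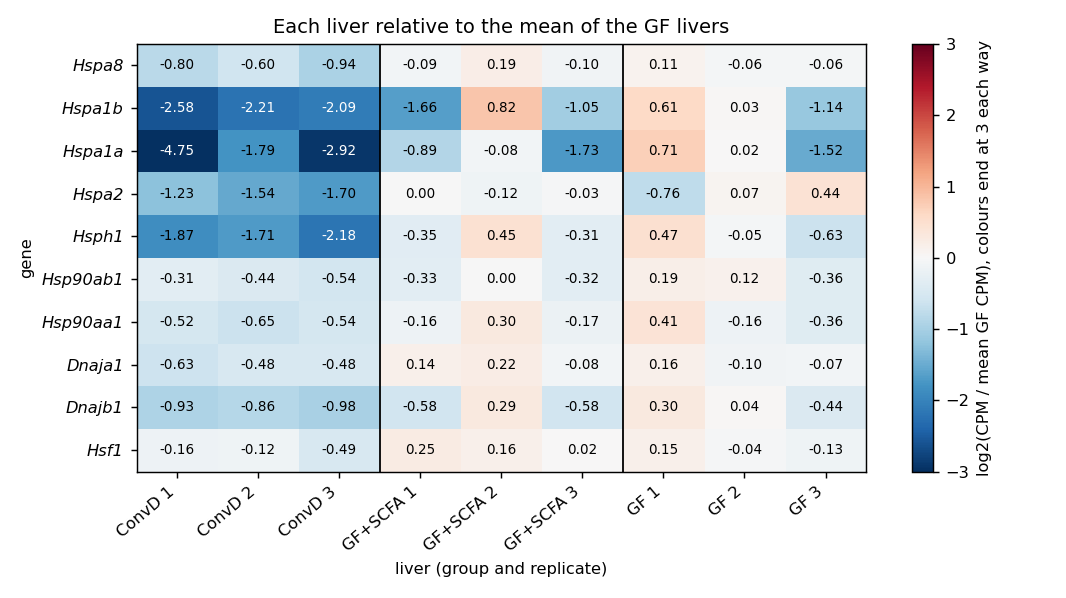
Level of each gene (vertical axis) in each of the 9 livers (horizontal axis, by group and replicate) as log2 of its CPM over the mean CPM of the GF livers, with blue for lower and red for higher and the value printed in each cell. All ConvD cells are below 0, between -4.75 and -0.12, and among the germ-free livers most genes are highest in GF replicate 1 and GF+SCFA replicate 2.

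The co-chaperones that serve HSP70 and HSP90 were examined next, from lists of related genes. Over 6 lists of cytosolic chaperone partners, 10 of 49 tested genes fell and 0 rose in ConvD against GF, 12 fell and 0 rose in ConvD against GF+SCFA, and 0 fell and 0 rose in GF+SCFA against GF. Over all tested genes 6.9%, 8.97% and 0.0332% were called lower in these comparisons. HSP90 co-chaperones accounted for 6 of 17 tested, with a median log2 fold change of -0.15. Stip1, the adaptor that passes clients from HSP70 to HSP90, had 46.9, 46.6 and 40.6 CPM in ConvD, 66.8, 72.8 and 64.2 CPM in GF+SCFA and 72.5, 63.7 and 57.0 CPM in GF livers. No ConvD liver reached the others, and the log2 fold change against GF was -0.53 (SE 0.09, adjusted p 0.00302). Fkbp4, an immunophilin of the glucocorticoid receptor complex, fell by 0.38 on the log2 scale (SE 0.09, adjusted p 0.0159). Ahsa2, an activator of the HSP90 ATPase, fell by 0.47 (SE 0.12, adjusted p 0.0239), and Chordc1, an HSP90-binding protein itself induced by heat, fell by 0.85 (SE 0.20, adjusted p 0.0274). The remaining calls, named after their values were seen, were Ahsa1 (-0.30, SE 0.08, adjusted p 0.0290) and Fkbp5 (-1.08, SE 0.26, adjusted p 0.0372), a glucocorticoid-induced immunophilin.

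Other cytosolic J-domain proteins accounted for the other 4 calls, of 11 tested (median -0.21). Dnajb4, a close relative of Dnajb1, had 26.4, 29.5 and 36.6 CPM in ConvD, 47.0, 59.4 and 53.5 CPM in GF+SCFA and 54.3, 52.1 and 67.2 CPM in GF livers. Its log2 fold change against GF was -0.91 (SE 0.14, adjusted p 0.00274), with no overlap. Dnajb6, which keeps aggregation-prone proteins soluble, fell by 0.66 on the log2 scale (SE 0.07, adjusted p 0.000180). Dnaja2 fell by 0.27 (SE 0.06, adjusted p 0.0147) and Dnajc5, a J-domain protein of vesicles, by 0.23 (SE 0.07, adjusted p 0.0430). None of the HSP70 and HSP110 relatives (5 tested, 1 at an unadjusted p under 0.05), HSP70 cofactors such as the BAG proteins (9 tested, 2 unadjusted), small heat shock proteins (4 tested, 0 unadjusted) or other heat shock factors and their regulators (3 tested, 1 unadjusted) was called in ConvD against GF by edgeR's quasi-likelihood test. Bag3, the HSF1-induced HSP70 cofactor of selective autophagy, had 17.6, 18.4 and 12.3 CPM in ConvD, 21.0, 35.4 and 18.0 CPM in GF+SCFA and 38.6, 28.8 and 18.5 CPM in GF livers. ConvD and GF livers were separated for Bag3 by a small gap, and its log2 fold change was -0.83 (adjusted p 0.203).

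The cytosolic chaperonin and the chaperones of 2 other compartments were counted in the same way, against the 6.9% of tested genes called lower and the 5.93% called higher in ConvD against GF. Of the cytosolic chaperonin CCT and prefoldin, 2 of 14 tested genes fell (Tcp1, -0.27, adjusted p 0.0125, and Vbp1, -0.34, adjusted p 0.0489), with a median of -0.13. Of the mitochondrial chaperones 2 of 13 fell (Dnaja3, -0.26, adjusted p 0.0170, and Hspd1, -0.24, adjusted p 0.0478) and 1 rose (Clpx, 0.34, adjusted p 0.0277), with a median of 0.01. Of the endoplasmic reticulum chaperones 6 of 16 fell, with a median of -0.24. Hspa5, the HSP70 of that compartment, had 463, 510 and 440 CPM in ConvD, 962, 998 and 822 CPM in GF+SCFA and 802, 687 and 655 CPM in GF livers. All GF+SCFA livers lay above all GF livers for Hspa5, but the log2 fold change of GF+SCFA against GF, 0.38, did not pass (adjusted p 0.190). Manf, a secreted protein of the endoplasmic reticulum stress response, was the 1 gene of these lists called in that comparison (0.63, SE 0.10, adjusted p 0.0397).

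**Figure D4:**
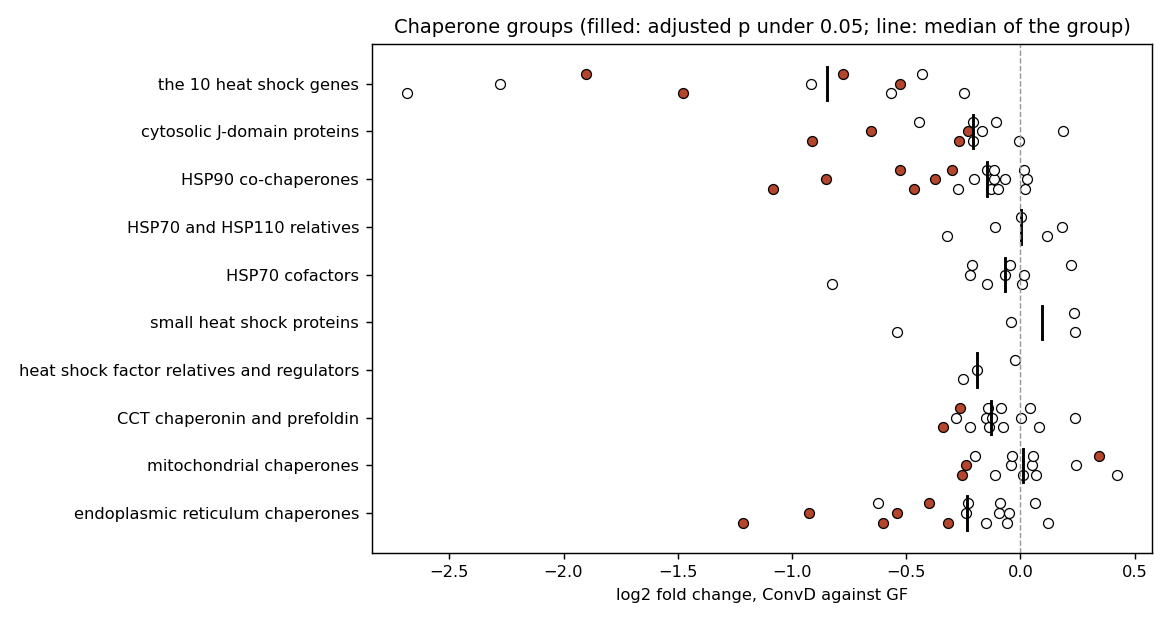
Log2 fold change in ConvD against GF (horizontal axis) of each tested gene of the 10 heat shock genes and of 9 lists of other chaperones (vertical axis), with filled points for an adjusted p under 0.05 and a vertical line at the median of each group. The median lies at -0.85 for the 10 heat shock genes and between -0.24 and 0.10 for the other lists.

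Of the pair of RNA-binding proteins that answer to cooling, Cirbp rose in ConvD livers and Rbm3 was not called. Cirbp had 13.4, 14.1 and 14.9 CPM in ConvD, 8.68, 7.35 and 9.82 CPM in GF+SCFA and 6.79, 8.56 and 10.2 CPM in GF livers, a log2 fold change against GF of 0.72 (SE 0.14, adjusted p 0.00547). Rbm3 had 38.8, 43.8 and 45.8 CPM in ConvD and 28.9, 32.0 and 47.6 CPM in GF livers, which overlapped.

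Of the 9887 other tested genes whose expected count averaged at least 50, those with levels most like Hsph1 over the 9 livers were Stip1 (Pearson r of log2 CPM 0.98), Eif2ak3, the kinase PERK of the endoplasmic reticulum stress response (0.98), Marveld1 (0.98), Prss53 (0.98) and the clock gene Per2 (0.97). Eif2ak3 had 10.5, 11.3 and 8.50 CPM in ConvD, 15.2, 24.0 and 17.4 CPM in GF+SCFA and 21.8, 20.1 and 16.3 CPM in GF livers. Per2 had 23.9, 23.4 and 22.4 CPM in ConvD, 38.8, 42.6 and 32.8 CPM in GF+SCFA and 46.8, 40.9 and 36.8 CPM in GF livers. Both followed Hsph1 in having low ConvD livers and a high GF replicate 1 and GF+SCFA replicate 2. The most opposite were Cirbp (-0.98), the drug-metabolising Cyp3a11 (-0.97), D130043K22Rik (-0.97), Cyp3a59 (-0.97) and Tm4sf1 (-0.97). Cyp3a11 had 2070, 2172 and 2196 CPM in ConvD, 736, 576 and 650 CPM in GF+SCFA and 380, 497 and 762 CPM in GF livers, and the single values of Cyp3a genes are uncertain because the family shares sequence. These are descriptions of 9 livers that share the same 3 groups, with no test.

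**Figure D5:**
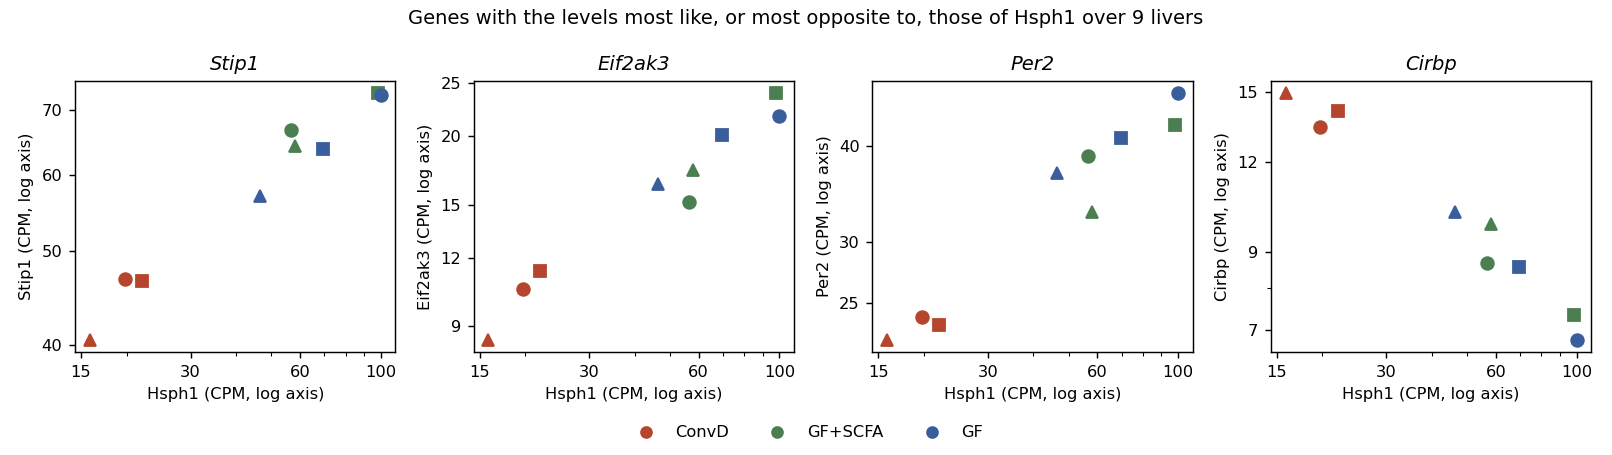
CPM of Stip1, Eif2ak3, Per2 and Cirbp (vertical axes, log scale) against CPM of Hsph1 (horizontal axis, log scale), 1 point per liver, coloured by group and with circles, squares and triangles for replicates 1, 2 and 3. Stip1, Eif2ak3 and Per2 increase with Hsph1 and Cirbp decreases, and the 3 ConvD livers sit at the low end of Hsph1 in each panel.

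Other features of the livers moved with the groups, and their part in the heat shock differences was not tested. All 8 hepatocyte markers were tested and their summed level overlapped between groups, at 90260 to 114100 TPM in ConvD, 90880 to 100800 TPM in GF+SCFA and 90800 to 112800 TPM in GF livers; 2 of 8 fell and 1 rose in ConvD against GF. Kupffer cell and macrophage markers rose for 8 of 12, with sums of 488 to 677 TPM in ConvD, 343 to 422 TPM in GF+SCFA and 298 to 418 TPM in GF livers. Neutrophil and monocyte markers rose for 5 of 7 tested of 10, with sums of 27.3 to 43.8, 2.80 to 4.10 and 3.46 to 6.36 TPM. Ltf, a neutrophil granule gene, had 0 CPM in every GF+SCFA and GF liver, and Ngp, S100a8 and S100a9 had at most 0.56 CPM there. These genes reached the minimum count for testing only through the ConvD livers, which fixed part of that count in advance. Over all tested genes 6.9% were called lower and 5.93% higher in ConvD against GF. Of the other marker lists, 1 of 8 sinusoidal endothelial genes fell and 1 of 4 tested B and plasma cell genes rose in ConvD against GF, and 0 of the tested stellate, biliary, T and NK cell or erythroid markers was called (0, 1, 0 and 2 at an unadjusted p under 0.05). Clock genes differed as well: 6 of 17 tested fell and 1 rose in ConvD against GF. Cry1, a repressor of the clock, had 2.43, 3.47 and 3.83 CPM in ConvD, 10.5, 12.8 and 12.2 CPM in GF+SCFA and 10.3, 7.57 and 9.20 CPM in GF livers, a log2 fold change against GF of -1.48 (SE 0.17, adjusted p 0.000180). Immediate early genes, which respond within a short time to many stimuli, had 0 of 15 tested called in ConvD against GF and 1 at an unadjusted p under 0.05. Their summed level overlapped between groups, at 107 to 162 TPM in ConvD, 157 to 231 TPM in GF+SCFA and 105 to 235 TPM in GF livers. It was lowest in GF replicate 1, the GF liver with the most Hsph1. In GF+SCFA replicate 2, the GF+SCFA liver with the most Hsph1, it was 175 TPM, between those of the other GF+SCFA livers.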

How the data were processed

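Polyadenylated RNA of 9 mouse livers, 3 per group, was sequenced. The labels' protocols name Qiagen columns for extraction and the Illumina TruSeq Stranded mRNA kit for the libraries. Per the submitters' processing notes, reads were processed with Bowtie2, RSEM 1.2.23 and the build mm9. No Bowtie2 version and no RSEM strand setting are given in the sources used here, so overlapping antisense genes could share reads. The deposited expected counts (RSEM estimated counts) are not normalised, and RSEM divides reads that match several genes among them, which affects Hspa1a and Hspa1b. Other members, such as Hspa8, also had counts that were not whole numbers. Sequence that the members share with genes outside the set was not examined. The deposited TPM values are normalised by the authors for length and depth, per the file headers. FPKM values were not used here.

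After rounding of the expected counts to whole numbers, the data were fitted with edgeR 4.0.16 in R 4.3.3: filterByExpr with its minimum count of 10 (12037 genes kept, all 10 heat shock genes among them), TMM factors (0.935 to 1.06), 1 model over all 9 livers with 6 residual degrees of freedom, robust quasi-likelihood F tests and Benjamini-Hochberg adjustment over all tested genes, called at an adjusted p under 0.05. An SE is the log2 fold change over the square root of its F statistic. Depth was 18193071 to 21627696 expected counts per liver and the biological coefficient of variation 10.6%. Chi-square per degree of freedom between livers of a group was 11.1 to 53.4, so no library was a copy. The fit was tested on simulated data.

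The 10 genes and the lists were chosen with earlier results of these data known. All 207 list entries were matched by symbol, 4 of them through an older one. Named list genes are up to 4 per list with the smallest adjusted p in ConvD against GF, those called in GF+SCFA against GF, the 5 genes most like and the 5 most opposite to Hsph1, and those said to be chosen later; immediate early, marker and clock genes are given by count with examples, and 1 list is not reported here. Col3a1, a marker of stellate cells and fibroblasts, was the 1 other list gene called in GF+SCFA against GF (-0.82, adjusted p 0.0397). Alternatives were other size factors, no filter, DESeq2 1.42.0, limma 3.58.1 on log2(TPM + pseudocount 1 or 0.1), only the 6 livers compared, a replicate block, each liver left out, and summed Hspa1a and Hspa1b counts. RefSeq promoter sequences are of GRCm38.p6, not the authors' build, and no coordinate was converted.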

Additional observations from a re-analysis of the deposited data

How the results depend on the processing

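The log2 fold changes of the 10 genes in both ConvD comparisons were below 0 under all 19 alternatives (380 of 380 values), and the calls for Hspa8, Hspa2 and Dnaja1 held in each. The count of genes that fell in ConvD against GF was 4 (830 over all tested genes), and 9 with DESeq2 (876). Without 1 liver it was 3 to 6 (436 to 790). In ConvD against GF+SCFA it was 5 (1080 over all tested genes), 7 with DESeq2 (1050), and 3 to 6 without 1 liver (677 to 1150). The cause was not tested. Scaling moved the split of all calls: in ConvD against GF 830 of 1544 called genes were lower (53.8%) with TMM, 543 of 1601 (33.9%) with upper-quartile factors and 391 of 1452 (26.9%) with library totals, while 4 of the 10 fell under each; in ConvD against GF+SCFA the shares were 48.7%, 33.2% and 27.6%, with 5, 4 and 4 of the 10. The main fit did not pair livers by replicate number. Correlations of same-numbered deviations were -0.07 to 0.03 for ConvD and GF and -0.05 to 0.05 for ConvD and GF+SCFA. Differently numbered livers ran over -0.13 to 0.11 and -0.095 to 0.088 there. For GF+SCFA and GF the same-numbered values, 0.08 to 0.14, lay above the others, -0.10 to 0.02. Each GF+SCFA liver thus correlated best with the GF liver of its own number, a hint of pairing from the data and not from the design. This did not hold for all ConvD livers. With a replicate block 6, 5 and 0 of the 10 genes fell in ConvD against GF, ConvD against GF+SCFA and GF+SCFA against GF. Over all tested genes 804, 1062 and 4 were called lower in that fit. In GF+SCFA against GF, where no gene was called, some values changed sign: Hspa8 was -0.015 in log2(TPM + 1) and -0.015 in log2(TPM + 0.1), and Hspa2 0.0060 in log2(TPM + 0.1). Without 1 liver the values there ran over -0.33 to 0.29 for Hsph1, -1.32 to 0.22 for Hspa1b, -0.089 to 0.070 for Hspa8, -0.16 to 0.27 for Hsp90aa1 and -0.32 to 0.22 for Hspa2. The number of called genes over all tested genes, on which the background shares rest, also moved. In ConvD against GF it was 1544, and 849, 918 and 936 without ConvD replicate 2, GF replicate 1 and ConvD replicate 1. In ConvD against GF+SCFA it was 2216, and 1383, 1400 and 1465 without GF+SCFA replicate 2, GF+SCFA replicate 3 and ConvD replicate 2. In GF+SCFA against GF it was 5, 82 with DESeq2, 173 without GF replicate 3, and 0 to 4 without any other single liver.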
